A study of Mus musculus with 20 samples.

Results

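The 33 genes described here belong to the endoplasmic reticulum (ER) stress and unfolded protein response. They were found by symbol among the probe sets that the platform's gene table assigns to exactly 1 gene, which gave 75 of 34945 probe sets and 33 of 18193 genes. They comprise 5 stress sensors and transcription factors, 15 ER chaperones and isomerases, 8 genes of ER-associated degradation and translocation, and 5 genes of the eIF2 alpha arm. Liver RNA came from male mice of the strain C57BL/6J, whose age was 8 weeks, after a fast of 16 h, with 1 array per mouse. The MSXH group of 10 mice was fed for 4 weeks a diet with 45 kcal% fat and 0.02% of the maple syrup extract that the labels call MSXH. The HFD group of 10 mice was fed the same high-fat diet without the extract, so both groups share the diet, the strain, the sex and the fast. The low-fat diet and the higher share of extract, which the design text also names, are not analysed here.

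Proteins made for secretion fold inside the ER, and the liver, which secretes most plasma proteins, depends heavily on this step. When unfolded proteins build up, the membrane sensors IRE1 alpha (Ern1), ATF6 and PERK (Eif2ak3) release a response that induces chaperones, enlarges the degradation machinery and lowers protein synthesis. IRE1 alpha splices the Xbp1 messenger, ATF6 is cut to a free transcription factor, and PERK phosphorylates eIF2 alpha, which favours translation of ATF4. Spliced XBP1 and cleaved ATF6 act on ER chaperone and degradation genes, and ATF4 acts on Ddit3, Trib3, Chac1 and genes of amino acid supply. The arrays measured RNA levels, not splicing, cleavage or phosphorylation.

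Many of the chaperones carry a known control element in their promoters, and these stretches are shown first. Promoter windows of 250 bases before to 50 bases after the start site came from the RefSeq table for GRCm38.p6, which held 29 of the 33 genes and 14452 of the genes on the array. Hyou1, Manf, Derl1 and Atf6 had no window and were not searched. The ER stress response element (ERSE), which is CCAAT and CCACG with 9 bases of any kind between them, was searched on both strands, so that on the other strand it reads CGTGG, 9 bases and ATTGG. It was found in 9 of 29 windows (31%), against 20 of 14452 windows of genes on the array (0.138%), and these 20 include the 9. The members were chosen as genes of this response, so their larger share is a description and not a test. By role, it was in 7 of 13 windows of chaperones, in 2 of 7 of degradation genes, in 0 of 4 of sensors and in 0 of 5 of the eIF2 alpha arm. Capitals in the sequences below mark the 2 fixed boxes of the element, each printed in the direction of the gene.
Hspa5 (chr2:34771840-34772089, plus strand): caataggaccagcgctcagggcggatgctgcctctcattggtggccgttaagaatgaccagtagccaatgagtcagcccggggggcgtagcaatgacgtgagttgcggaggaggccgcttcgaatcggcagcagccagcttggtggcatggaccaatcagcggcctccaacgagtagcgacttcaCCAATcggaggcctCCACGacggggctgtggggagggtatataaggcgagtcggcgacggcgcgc
Hsp90b1 (chr10:86705523-86705666, minus strand): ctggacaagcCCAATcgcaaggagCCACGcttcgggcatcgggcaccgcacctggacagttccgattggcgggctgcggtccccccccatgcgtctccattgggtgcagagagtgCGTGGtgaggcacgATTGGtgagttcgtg
Creld2 (chr15:88819510-88819548, plus strand): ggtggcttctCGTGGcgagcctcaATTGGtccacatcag
Pdia6 (chr12:17266481-17266519, plus strand): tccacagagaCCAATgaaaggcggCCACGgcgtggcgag
Dnajc3 (chr14:118937817-118937855, plus strand): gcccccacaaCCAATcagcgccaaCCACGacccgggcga
Calr (chr8:84847065-84847103, minus strand): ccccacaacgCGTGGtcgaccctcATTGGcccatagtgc
Canx (chr11:50325790-50325828, minus strand): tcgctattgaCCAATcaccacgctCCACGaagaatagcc
Derl3 (chr10:75893232-75893270, plus strand): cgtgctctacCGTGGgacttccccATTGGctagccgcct
Syvn1 (chr19:6046522-6046560, plus strand): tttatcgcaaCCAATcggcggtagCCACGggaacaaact

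The Hspa5 stretch is the whole 250 bases before the start site, and its exact match lies at -65 to -47. Only exact matches were searched, so near matches stand in lower case. The Hsp90b1 stretch holds an element at -212 to -194 and another, in the opposite direction, at -107 to -89. Creld2, Calr and Derl3 have the element only in the reverse direction. Other short elements were rarer among these genes. The related ERSE-II, which is ATTGG and CCACG with 1 base of any kind between them, was in 2 of 29 windows (Herpud1 and Dnajb11), against 0.0623% of array genes, and neither gene held the longer element. The core of the unfolded protein response element, TGACGTGG, whose last letters can overlap the CCACG box on the other strand, was in 0 of 29 windows, against 0.989%. The site of ATF4 dimers, TGATGNAA, was in 3 of 29 windows (Chac1, Herpud1 and Trib3), against 3.24%. In the Herpud1 and Chac1 stretches, capitals mark the ATF4 site, which reads TTGCATCA in the direction of the gene, and, in Herpud1, also the ERSE-II.
Herpud1 (chr8:94386307-94386397, plus strand): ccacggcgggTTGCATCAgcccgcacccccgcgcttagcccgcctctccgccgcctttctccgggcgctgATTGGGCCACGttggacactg
Chac1 (chr2:119351039-119351066, plus strand): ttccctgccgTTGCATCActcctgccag
A match is a run of letters and was not tested as a bound site. Its part in the levels of a gene was not tested either.

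The deposited values lie between 5.17 and 15.01 on a log scale whose base is not stated, and their spread between arrays is compressed. Across arrays the SD of a probe set had a median of 1.07e-05, and it stayed under 0.001 for 97.6% of them. Among the members, 13 of 33 had an SD above 0.001, beside 3.09% of all genes. Each difference is stated in SD units (MSXH mean minus HFD mean, over the pooled SD of 10 and 10 mice; called a standardized difference), with its 95% interval, and as a pair count: every MSXH mouse was set against every HFD mouse, and the count says in how many of these 100 pairs the MSXH mouse had the higher level. Unless another is named, a gene's value is that of its probe set of highest mean. These are not folds of RNA, and the level of one probe set is not set against that of another. The hepatocyte markers Alb (median 14.71) and Apoa1 (median 14.61) were near the top of the scale in both groups. MSXH 4 and MSXH 6 stood apart in 2 ways, with the highest array medians (up to 6.5226, against at most 6.5217 on the other arrays) and high sums of 12 skeletal muscle markers (up to 97.5863 in MSXH, or 76.4341 without these mice, against up to 76.2230 in HFD). Results are given with and without them. No source says how the livers were processed in batches. The number of mice limits the precision, and in bulk liver, fewer cells of a type and less RNA per cell cannot be told apart.

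No gene of the unfolded protein response passed the test between MSXH and HFD livers. In limma's fit across all genes, 0 of 33 members had an adjusted p under 0.05, as did 0 of all 18193 genes (0%), and the smallest adjusted p was 0.328 among members (Ppp1r15a) and 0.0728 among all genes. At an unadjusted p under 0.05 there was 1 member, lower in MSXH, beside 10.9% of all genes in either direction and 4.31% in the lower direction. The mean was lower in MSXH for 27 of 33 members, beside 45.3% of all genes, and the median standardized difference was -0.335 over members and 0.0669 over all genes. The members' median was -0.17 without MSXH 8, -0.198 without MSXH 7 and -0.196 without HFD 5. The MSXH and HFD values overlapped for all 33 members, 23 members differed by less than 0.5 SD, and 32 of the 33 intervals held 0. The same counts were not made over all genes, so they do not set the members apart. Over the 75 probe sets, 60 were lower and 15 higher (47% of all probe sets were lower), and 4 had an unadjusted p under 0.05, all lower (4.69% of all probe sets). These belong to Atf4, Herpud1, Hspa5 and Ppp1r15a. Of the 22 members with several probe sets, 13 had all of them lower, 2 had all of them higher and 7 had them on both sides.

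The count of lower members depends on scaling. It was 27 of 33 without MSXH 4 and 6, where 45.4% of all genes were lower. It was 32 of 33 with each array centred on its median and 29 of 31 after quantile normalization, but these scalings also made 97.2% and 92.8% of all genes lower. Without MSXH 4 and 6 and after quantile normalization it was 16 of 28, beside 43.8% of all genes. Quantile normalization leaves no value for a gene that holds the same rank on every array, as Hspa5 and P4hb do on all 20 arrays (1.14% of all genes do so). Other members hardly changed rank either: 18 of 33 moved by 10 places or fewer among 45101 probe sets. Hsp90b1 moved by 4, Dnajc3 by 5, Pdia4 by 13 and Ppp1r15a by 17. Their values after quantile normalization, and signs that turn there, thus rest on small changes of rank.

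**Figure D1:**
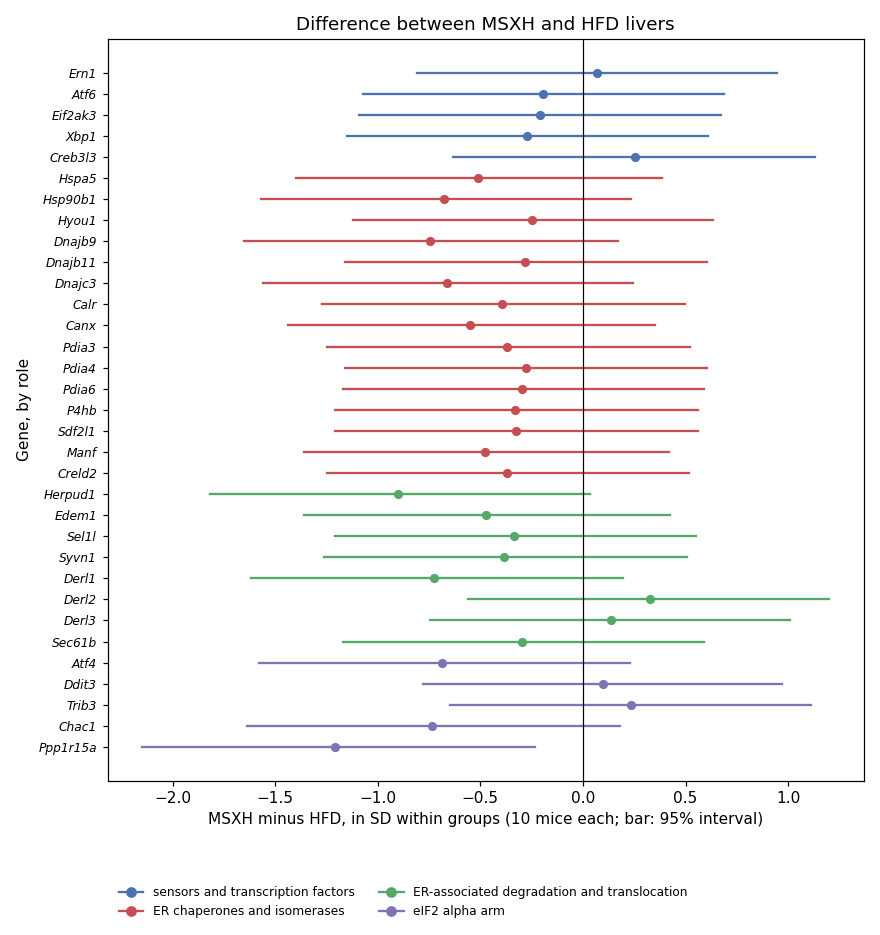
Standardized difference (MSXH minus HFD, in SD within groups, 10 mice each) of the 33 genes on the probe set of highest mean, coloured by role, with 95% intervals. Every chaperone and isomerase lies left of 0, between -0.747 and -0.248, and the interval of 1 gene, Ppp1r15a, leaves out 0.

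Among the sensors and their transcription factors, 3 of 5 were lower in MSXH, with a median of -0.194, and all lay between -0.275 and 0.252. Ern1, the splicing sensor IRE1 alpha, differed by 0.0689 (95% interval -0.809 to 0.945). Its levels had a lowest, median and highest value of 9.03511, 9.03535 and 9.03676 in MSXH, against 9.03438, 9.03566 and 9.03693 in HFD. HFD mice thus held both the highest and the lowest value of Ern1, and of its 5 probe sets 3 were lower and 2 higher. Atf6 differed by -0.194 (-1.07 to 0.688) and the PERK gene Eif2ak3 by -0.211 (-1.09 to 0.671), with other probe sets of Atf6 up to 0.065 and of Eif2ak3 up to 0.405. Xbp1, which gives an active transcription factor of the pathway after splicing, differed by -0.275 (-1.15 to 0.61). Its values were 12.361359, 12.361380 and 12.361419 in MSXH and 12.361358, 12.361391 and 12.361435 in HFD, ranges that nearly coincide. Creb3l3, a liver factor cut and released like ATF6 that acts on lipid and iron genes, differed by 0.252 (-0.632 to 1.13).

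All 15 chaperones and isomerases were lower in MSXH on the deposited scale, on every probe set, with a median of -0.371, and 10 of 13 with a value were lower without MSXH 4 and 6 and after quantile normalization, where Hsp90b1, Dnajc3 and Pdia4 turned. None passed the test, and on the probe sets of highest mean the smallest unadjusted p was 0.105 (Dnajb9). Hspa5, the gene of the master chaperone BiP, had 12.7062, 12.7087 and 12.7099 as its lowest, median and highest level in MSXH, against 12.7074, 12.7090 and 12.7100 in HFD. Its standardized difference was -0.514 (-1.4 to 0.385), with the MSXH mouse higher in 38 of 100 pairs. The upper ends of the groups were level, and MSXH reached lower. Its other probe sets differed by -0.643 and by -1.58. On the last of these the levels were 8.327328, 8.327405 and 8.327447 in MSXH, against 8.327389, 8.327464 and 8.327493 in HFD, with the MSXH mouse higher in 13 of 100 pairs, an unadjusted p of 0.00206 and an adjusted p of 0.232 in limma's fit over probe sets. The groups overlapped there too, and the size of the Hspa5 difference thus depends on the probe set. Hsp90b1, the ER form of HSP90, differed by -0.676 (-1.57 to 0.236), and Hyou1, a large chaperone and exchange factor for BiP, by -0.248 (-1.12 to 0.635), with other probe sets of Hyou1 down to -0.612.

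Dnajb9, a DnaJ partner of BiP with 1 probe set, differed by -0.747 (-1.65 to 0.172), with the MSXH mouse higher in 26 of 100 pairs. Its levels were 10.32251, 10.32454 and 10.32586 in MSXH, against 10.32335, 10.32499 and 10.32615 in HFD, so each of these values was lower in MSXH. Dnajc3, the DnaJ protein known as P58IPK, differed by -0.665 (-1.56 to 0.246), and Dnajb11, another such partner, by -0.282 (-1.16 to 0.603). The lectin chaperones of glycoprotein folding, Calr and Canx, differed by -0.393 (-1.27 to 0.498) and -0.55 (-1.44 to 0.352). The disulfide isomerases Pdia3, Pdia4, Pdia6 and P4hb ran from -0.369 (Pdia3) to -0.278 (Pdia4), with every interval across 0, and another probe set of Pdia6 was at -0.91 (unadjusted p 0.0519).

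Creld2, Sdf2l1 and Manf had the widest spread between mice of all members. Creld2, a cysteine-rich ER protein induced by ER stress, had an SD of 0.0383 over the 20 mice, the 99.7th percentile of all genes. Its lowest, median and highest level was 8.893, 8.984 and 9.034 in MSXH, against 8.941, 8.998 and 9.047 in HFD. The lowest 3 of the 20 values were from MSXH 8 (8.893), MSXH 7 (8.927) and MSXH 3 (8.940), and the highest 2 from HFD 5 (9.047) and MSXH 10 (9.034). The means were 8.976 ± 0.045 in MSXH and 8.991 ± 0.0309 in HFD (SD, n = 10 each), a standardized difference of -0.371 (-1.25 to 0.519).

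Sdf2l1, a partner of BiP and its DnaJ proteins, had 8.216, 8.263 and 8.286 in MSXH as its lowest, median and highest level, against 8.232, 8.267 and 8.290 in HFD. Manf, a secreted and ER-resident factor that binds BiP, had 10.009, 10.034 and 10.044 in MSXH, against 10.022, 10.038 and 10.050 in HFD. In both genes MSXH 8 was lowest and HFD 5 highest. Their standardized differences were -0.328 (-1.21 to 0.559) and -0.479 (-1.36 to 0.418). Of all members, 26 of 33 had a larger SD in MSXH than in HFD. The share over all genes was not counted, and many members were high or low in the same mice, so this is a description only.

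**Figure D2:**
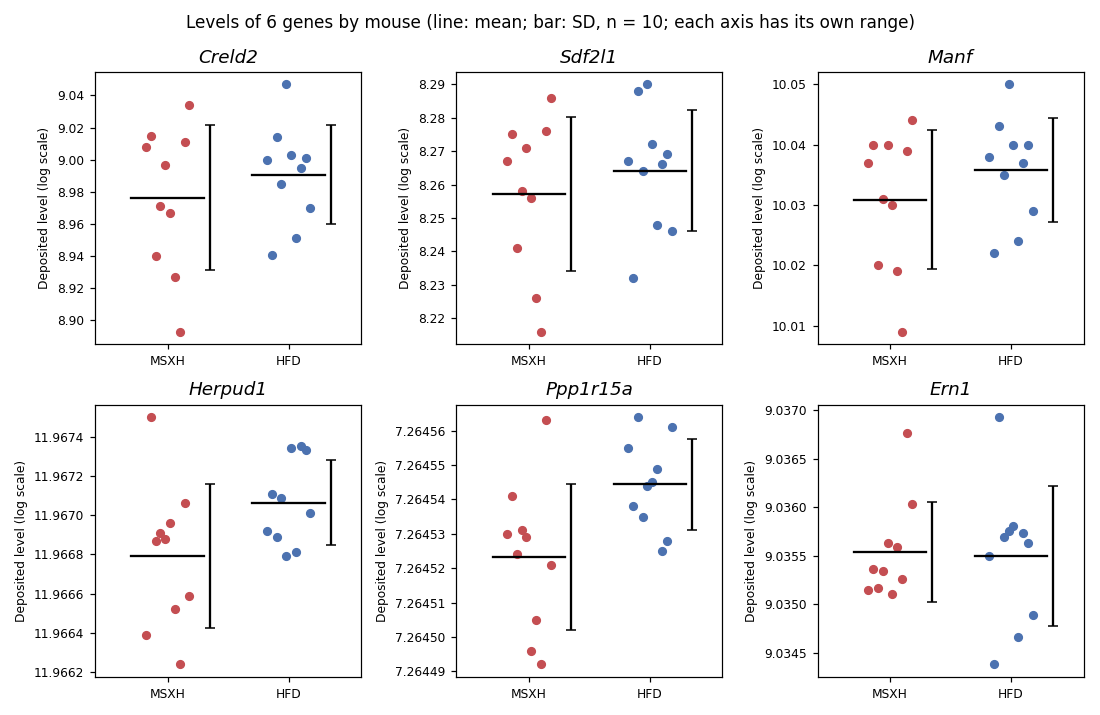
Deposited level (log scale) of 6 genes in each MSXH mouse (left in each panel) and HFD mouse (right), with the mean and SD of 10 mice; each axis has its own range. Creld2, Sdf2l1 and Manf reach lower in MSXH, with their lowest values, 8.893, 8.216 and 10.009, in MSXH 8, and the groups overlap in all 6 panels.

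In ER-associated degradation and translocation, 6 of 8 genes were lower in MSXH, with a median of -0.359. Herpud1, which brings together the complex that exports misfolded proteins, differed by -0.903 (-1.82 to 0.0322), with an unadjusted p of 0.0537 and an adjusted p of 0.472. Its levels were 11.96624, 11.96688 and 11.96750 in MSXH, against 11.96679, 11.96705 and 11.96735 in HFD. MSXH thus held both its lowest and its highest value, and the MSXH mouse was higher in 26 of 100 pairs. Sel1l and Syvn1, which form the ubiquitin ligase core of this machinery, differed by -0.335 (-1.21 to 0.553) and -0.384 (-1.26 to 0.507). Edem1, which directs glycoproteins to degradation, differed by -0.472 (-1.36 to 0.424) on 1 probe set and by 0.293 on its other. The derlins, membrane proteins of the export channel, did not share a direction: Derl1 differed by -0.724 (-1.62 to 0.193), Derl2 by 0.326 (-0.561 to 1.2) and Derl3 by 0.136 (-0.744 to 1.01). Sec61b, a subunit of the channel through which new proteins enter the ER, differed by -0.296 (-1.17 to 0.59).

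In the eIF2 alpha arm, Ppp1r15a (GADD34), the subunit that directs a phosphatase to eIF2 alpha and so restores protein synthesis, differed by -1.21 (-2.15 to -0.234), with an unadjusted p of 0.0131 and an adjusted p of 0.328 in limma's fit. Its lowest, median and highest level was 7.264492, 7.264526 and 7.264563 in MSXH, against 7.264525, 7.264545 and 7.264564 in HFD. The lowest HFD mouse was thus near the MSXH median, and MSXH 9, at 7.264563, lay at the top of the HFD range. The MSXH mouse was higher in 19 of 100 pairs. The difference was -1.1 without MSXH 4 and 6, -0.305 after quantile normalization, and 0.685 with both changes, so its direction depends on the scaling.

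Atf4, the transcription factor of this arm, differed by -0.686 (-1.58 to 0.227). Its other probe sets lay on both sides of 0, at -1.36 (unadjusted p 0.00604, adjusted p 0.295 in limma's fit over probe sets) and 0.0841. On the first of these Atf4 had 8.458985, 8.459554 and 8.460181 in MSXH, against 8.459640, 8.459958 and 8.460734 in HFD. Chac1, a glutathione-degrading enzyme induced by ATF4, differed by -0.737 (-1.64 to 0.181). Chac1 had 6.8341, 6.8353 and 6.8376 in MSXH, against 6.8348, 6.8358 and 6.8377 in HFD. Ddit3 and Trib3, on which ATF4 also acts, lay on the other side of 0 on their probe sets of highest mean. Ddit3, the gene of the death-associated factor CHOP, differed by 0.0966 (-0.782 to 0.972; -0.372 on its other probe set) and had 7.59021, 7.59101 and 7.59207 in MSXH, against 7.59033, 7.59118 and 7.59196 in HFD. Trib3, a pseudokinase that dampens ATF4 and AKT signalling, differed by 0.236 (-0.647 to 1.11). Both were negative with arrays centred or quantile normalized, where 97.2% and 92.8% of all genes were lower.

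For 32 of the 33 genes, on the probe set of highest mean, the difference between diets was under 1 SD of the spread between mice, and many of them were high or low in the same mice. MSXH 8 was the lowest of the 20 mice in 18 of 33 members and MSXH 7 in 8, while HFD 5 was the highest in 11, HFD 3 in 10 and MSXH 10 in 5. For the 15 chaperones and isomerases, the median deviation from a gene's mean was -2.17 SD in MSXH 8, -1.67 in MSXH 7, 0.904 in MSXH 9 and 1.24 in MSXH 10. It was -1.09 SD in HFD 2, 1.17 in HFD 3 and 1.3 in HFD 5. Both diets thus held mice with high and mice with low chaperone levels. In MSXH 8, 0 of the 15 were above their mean, and in HFD 5 all 15 were. MSXH 4 and MSXH 6, the arrays that stood apart, were at -0.249 and -0.487 SD and were neither highest nor lowest for any member.

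**Figure D3:**
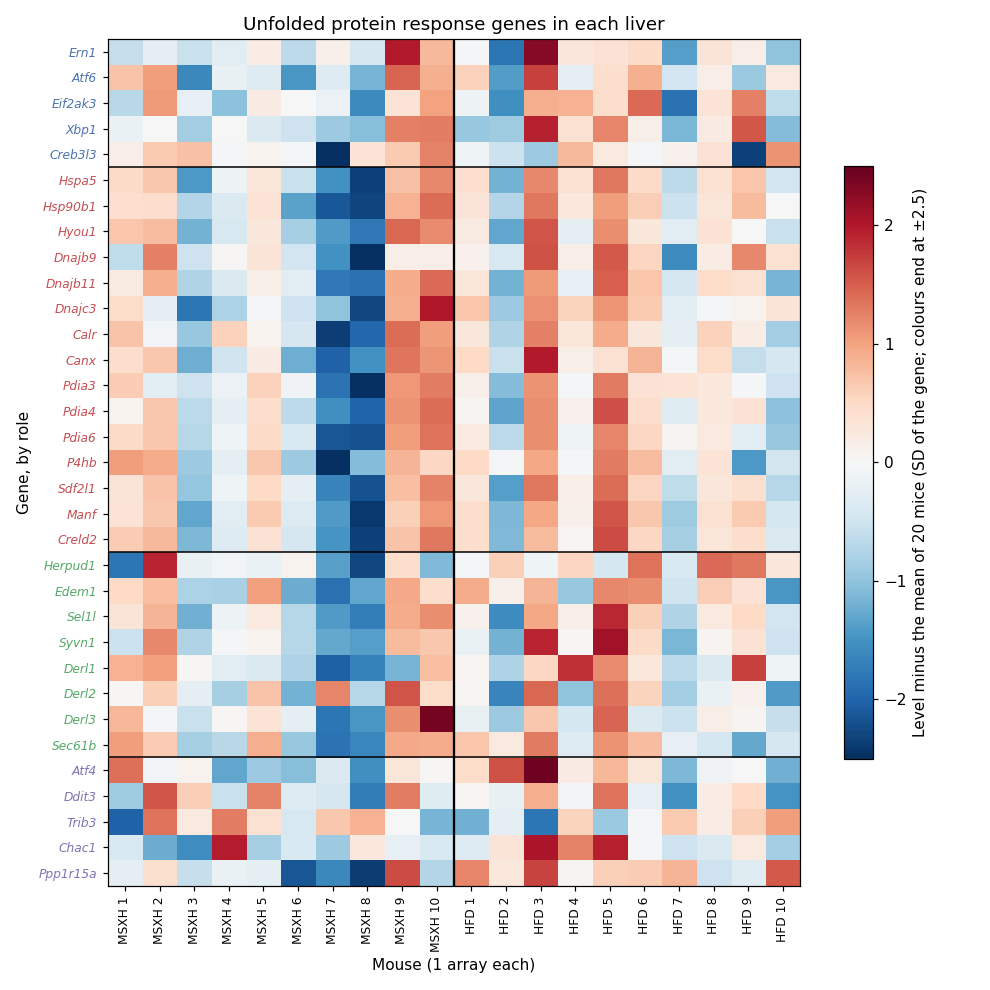
Level of each gene in each mouse as its deviation from the mean of all 20 mice, in SD of the gene. MSXH mice are left of the vertical line and HFD mice right of it, and horizontal lines part the roles from top to bottom: sensors and transcription factors, chaperones and isomerases, degradation and translocation, eIF2 alpha arm. Columns of one colour, such as the low MSXH 8 and the high HFD 5 (median deviations of -2.17 and 1.3 SD over chaperones), run through the chaperones and most of the degradation genes.

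With group means taken off, the mean Pearson correlation over all pairs of members was 0.547, against 0.00351 over all pairs of genes. It was 0.863 among the chaperones and isomerases, 0.52 in degradation and translocation, 0.392 among sensors and 0.0314 in the eIF2 alpha arm. It was 0.586 within MSXH, 0.488 within HFD and 0.557 without MSXH 4 and 6, but 0.285 without these mice and after quantile normalization, where it was 0.0693 over all pairs of genes. Of the 528 pairs, 40 were negative, and 31 of these held Trib3. The values share arrays, and their level depends on scaling: with arrays centred the mean over all pairs of genes was 0.874, above the 0.544 of the members, and after quantile normalization it was 0.739, against 0.435.

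Hspa5 was then set against each of the other 18192 genes over the 20 mice, with a two-sided permutation test within groups (100000 permutations, smallest possible p 1e-05) adjusted over all genes. A positive correlation passed an adjusted p of 0.05 for 22 of the 32 other members, beside 287 of 18192 genes (1.58%), and a negative one for 0 members, beside 0.786%. By rank (Spearman's rho) 24 members passed, beside 642 genes in either direction. An r above 0.8 was reached by 16 members, against 58 genes in all (0.319%). All 14 other chaperones and isomerases passed, as did 5 of 8 degradation and translocation genes, 3 of 5 sensors and 0 of 5 genes of the eIF2 alpha arm.

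The closest members were Sdf2l1 (r 0.985, rho 0.989), Manf (r 0.984, rho 0.974), Creld2 (r 0.982, rho 0.988), Sel1l (r 0.968, rho 0.98) and Pdia4 (r 0.955, rho 0.98), each with an adjusted permutation p of 0.00606. Sdf2l1, Manf and Creld2 kept an r of at least 0.958 within each diet. Xbp1 had an r of 0.79 (adjusted p 0.00846), Atf6 of 0.744 (0.0311) and Eif2ak3 of 0.706 (0.0302), and Ern1, at 0.642, missed the threshold (0.0505). Herpud1, whose window holds the ERSE-II and the ATF4 site, had an r of 0.311 (0.576), and Creb3l3 one of 0.177 (0.78).

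In the eIF2 alpha arm r with Hspa5 was 0.611 for Ddit3, 0.498 for Ppp1r15a, 0.414 for Atf4, 0.273 for Chac1 and -0.442 for Trib3, and none passed (adjusted permutation p 0.113 to 0.595). Trib3 had an r of -0.733 with Atf4, given here as a description. Without MSXH 8 and MSXH 7, which lay farthest from the median of Hspa5, r was 0.977 for Sdf2l1, 0.97 for Creld2 and 0.969 for Sel1l, and 18 members passed, beside 0.55% of genes. Without MSXH 4 and 6, 19 members passed (1.13% of genes), and with arrays centred 13 did (0.121%). Within MSXH alone 14 passed (0.418%), and within HFD alone 0 members and 0 genes did, though 18 members had an r above 0.8 there, as did 1.43% of genes.

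**Figure D4:**
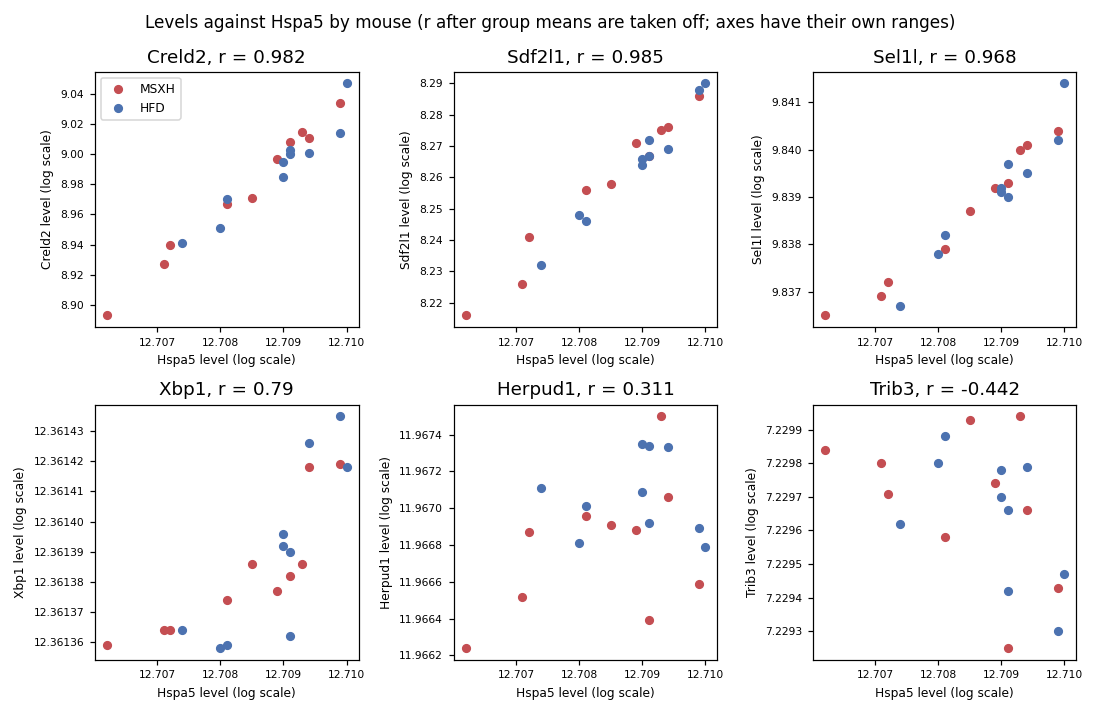
Level of 6 members against the level of Hspa5 in the same mouse (log scale, MSXH red, HFD blue), with the Pearson r over 20 mice after group means are taken off. Creld2, Sdf2l1 and Sel1l lie close to a line in both diets, Xbp1 (r 0.79) more loosely, and Herpud1 (r 0.311) and Trib3 (r -0.442) scatter.

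The 9 members with an ERSE include Hspa5 itself, and in the others r with Hspa5 ran from 0.832 (Canx) to 0.982 (Creld2), with Derl3 at 0.876 and Syvn1 at 0.859. Among the members with no ERSE in their windows were Sdf2l1 (0.985), Sel1l (0.968) and Pdia4 (0.955). Manf (0.984) and Hyou1 (0.946) had no window and were not searched. Of the 11 other array genes with the element, Ero1b, an oxidase that renews disulfide isomerases, had an r of 0.953, and the next highest was 0.336 (Pan2). Among non-members, Ero1b was also the gene most like Hspa5, followed by Uggt1 (0.915), which checks the folding of glycoproteins, 1810014B01Rik (0.906), Selenok (0.889) and Slc35b1 (0.885). Ranking by r was chosen after the values were seen.

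**Figure D5:**
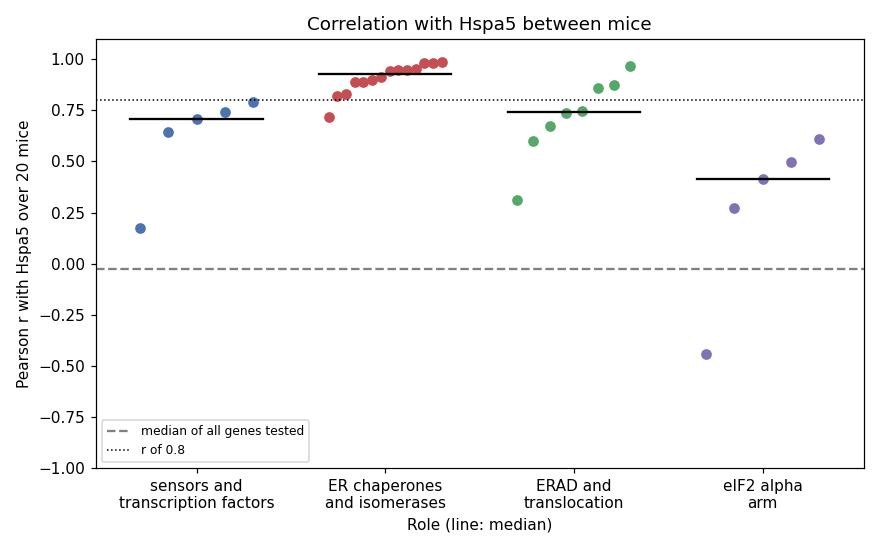
Pearson r with Hspa5 over 20 mice, group means taken off, for the 32 other members by role; lines mark the median of a role, the dashed line the median of all genes tested (-0.0262). The chaperones and isomerases lie at 0.717 or above, and the eIF2 alpha arm between -0.442 and 0.611.

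Another 138 genes of the pathway were read from the same fit. Of these 83 were lower and 55 higher in MSXH, with a median of -0.119, beside 45.3% of all genes lower. An adjusted p of 0.05 was passed by 0 of them, and 1 was lower and 4 higher at an unadjusted p under 0.05 (4.31% and 6.58% of all genes). Translocation, signal peptide and early secretion genes were lower in 26 of 33 (median -0.251), led by Srp14 of the signal recognition particle (-1, adjusted p 0.524) and the cargo receptor Surf4 (-0.674, adjusted p 0.605). Other folding enzymes were lower in 17 of 28 (median -0.117), with Mogs, the first glucosidase of glycan trimming, at 0.594 and the oxidase Ero1a at -0.569. Other degradation genes were lower in 14 of 22 (median -0.0853), with Ufd1, a partner of the VCP segregase, at -1.02 and the ligase Rnf139 at 0.995. Other sensors and regulators were lower in 10 of 17 (median -0.0453), with the heme-regulated eIF2 alpha kinase Eif2ak1 at 1.4 (0.394 to 2.37, adjusted p 0.323) and Tmbim6 at 0.693.

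Targets of ATF4 outside the members were lower in 13 of 32 and had a median of 0.131. The cystine transporter Slc7a11 was at 1.02 (adjusted p 0.408) and the tryptophan tRNA synthetase Wars at 1.05 (0.409). Their windows held the ATF4 site in 11 of 26 (42.3%). A correlation with Hspa5 passed with a positive sign for 1 of 32 and with a negative sign for 1 (1.58% and 0.786% of all genes). Liver targets of CREB3L3 were lower in 4 of 7, with the lipase activator Apoc2 at 0.899 and Apoa5 at -0.8. Of these 7, 2 passed with a negative correlation, beside 0.786% of all genes, among them Apoc2 (r -0.762, adjusted permutation p 0.0321). A correlation with Hspa5 passed with a positive sign in 15 of 33 translocation and secretion genes, 8 of 28 folding enzymes and 4 of 22 degradation genes, beside 1.58% of all genes. The count of lower genes moves with the arrays used and with scaling. Without MSXH 4 and 6, 69 of the 138 were lower (45.4% of all genes). With arrays centred 133 of the 138 were lower (97.2%). Without MSXH 4 and 6 and after quantile normalization 51 of the 131 with a value were lower (43.8%).

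Markers of other cell types were read beside the chaperones. None of the lists held a marker with an r beyond 0.8 with Hspa5 in either direction. The median r was 0.414 over 12 macrophage and Kupffer cell markers, 0.41 over 12 endothelial markers and -0.407 over 10 hepatocyte markers. The other lists lay between -0.199 (pancreatic acinar cells) and -0.0123 (skeletal muscle). Of the 10 hepatocyte markers, 2 passed with a negative correlation, beside 0.786% of all genes. Acinar markers went both ways: Prss2, at -0.722, passed, and Cela1 was at 0.658 (adjusted permutation p 0.0706). The summed level of the macrophage list ran from 100.6333 to 100.6633 in MSXH, against 100.6359 to 100.6548 in HFD, and was highest in MSXH 1. For the endothelial list it ran from 101.4213 to 101.4353 in MSXH, against 101.4245 to 101.4321 in HFD, and was highest in MSXH 8, the mouse with the lowest chaperones. For the hepatocyte list the sums were 129.3103 to 129.3948 in MSXH, against 129.3021 to 129.3999 in HFD. The B and plasma cell sum ran from 67.7616 to 67.7652 in MSXH, against 67.7616 to 67.7634 in HFD, and was also highest in MSXH 8. In this list Sdc1 (r -0.719) passed with a negative correlation, while the median r was -0.0333 and the highest 0.304. Sdc1 alone ran from 10.29754 to 10.30097 in MSXH, against 10.29767 to 10.29955 in HFD, about as wide as the sum. The sum can thus reflect 1 gene more than the list. Stellate cell sums ran from 98.2101 to 98.3019 in MSXH, against 98.2144 to 98.2703 in HFD, adipocyte sums from 58.5697 to 58.9965 in MSXH, against 58.4981 to 58.7889 in HFD, and cholangiocyte sums from 44.6056 to 44.6061 in MSXH, against 44.6057 to 44.6060 in HFD. These sums were all highest in MSXH 4. Without MSXH 4 and 6 the highest MSXH sums were 98.2648, 58.7538 and 44.6059, each below the highest HFD sum. Acinar sums ran from 66.3745 to 66.3763 in MSXH, against 66.3748 to 66.3762 in HFD. The part of these cell types in the chaperone levels was not tested.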

How the data were processed

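Total liver RNA of 20 mice was biotin-labelled and measured on Affymetrix 3' arrays, per the labels' protocols. The deposited values were taken as log2 levels, from their range. Their base is not stated. How the authors corrected the background, scaled the arrays and combined probes is not given in the sources. The values were tested as deposited.

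Of 45101 probe sets, 34945 had 1 symbol and were used, 932 had several, 9224 had none or were not listed, and 64 are controls. For the 9010 genes with several probe sets the one of highest mean was used. Gene IDs of 34754 probe sets matched the GRCm38.p6 gene table. Genes were tested with limma 3.58.1 in R 4.3.3 (lmFit, eBayes with trend, two-sided, on 18 residual and 0.704 prior degrees of freedom), with Benjamini-Hochberg adjustment over 18193 genes at 0.05. The correlation of every gene with Hspa5 was tested by 100000 permutations within groups and adjusted over 18192 relations. This test was added after the data were seen. Both tests were checked on simulated data. Intervals of standardized differences use the noncentral t distribution. Other steps used Python 3.11.15, pandas 2.3.3, numpy 2.4.6 and scipy 1.17.1, and matplotlib 3.10.9 drew the figures.

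The members, the lists of other pathway genes and of cell markers, and the tests were chosen with earlier results of these data known. All members are described. In other pathway lists, the genes named are those past the threshold, or else the 2 of smallest p. Markers named are among the 2 of highest level in their list, and not every list has one named. Prss2 and Sdc1 are named because their correlation with Hspa5 passed, and Cela1 is given beside Prss2. Genes named for their r with Hspa5 were chosen after their values were seen. Numbers of mice come from the labels, which do not say that equal numbers share anything, and mice that share a number correlated between -0.265 and 0.165. No pairs were modelled. Alternatives were 2 scalings, other probe set rules, variance models and tests, a block by number, and arrays left out. Settings of the correlation test, within each diet and without the 2 mice that lay farthest from the median of Hspa5, were added after seeing the data. No protein sequences were used.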

Additional observations from a re-analysis of the deposited data

Results flagged for a closer look

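For each of the 33 genes, each diet group of 10 mice was searched for 1 mouse far from the others, by the gap to its nearest neighbour over the range of the group, and 2 of 66 groups held one. Chance alone flags about 1 in 20 groups. For Creb3l3 it was MSXH 7, the lowest MSXH mouse, whose gap took 0.66 of the range. For Chac1 it was MSXH 4, the highest MSXH mouse, whose gap took 0.486 of the range. MSXH 4 is 1 of the 2 arrays with a high median and high muscle markers.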

How the results depend on the processing

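In no alternative did a member pass an adjusted p of 0.05 between MSXH and HFD, and the smallest adjusted p was 0.183. The count over all genes was 0, but 1 when the probe sets of a gene were averaged, 4 with the rank sum test, 12 at an adjusted p of 0.10, and 0 to 3 with 1 array left out (3 without HFD 3). Members at an unadjusted p under 0.05 numbered 1 as deposited, beside 10.9% of all genes. They numbered 2 after quantile normalization and 2 without MSXH 4 and 6. They numbered 3 with the mean or the most variable probe set and after both changes of array and quantile scaling. With arrays centred they numbered 4. They also numbered 4 when each gene took its probe set of smallest p, a choice that favours a low p. With 1 array left out they numbered 1 to 3 (3 without HFD 7 or MSXH 2). The share of all genes at that p was not counted in the other settings, so these counts do not set the members apart. Of the members with a value, 27 of 33 were lower, but 16 of 28 without MSXH 4 and 6 and after quantile normalization. In that last setting 51 of 131 other pathway genes were lower, against 83 of 138 as deposited. These were 69 of 138 without MSXH 4 and 6 alone and 133 of 138 with arrays centred. Leaving out 1 array gave 27 to 29 lower members. The members' median standardized difference of -0.335 ranged from -0.498 to -0.17 with 1 array left out, where the second is without MSXH 8, and was -0.181 with array weights. With a block by replicate number, 27 members were lower, 1 had an unadjusted p under 0.05 and 0 passed. Equal numbers were not found to pair mice, and the block changed no call.

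The mean correlation between members was 0.547. It was 0.435 after quantile normalization (0.739 over all genes), 0.285 without MSXH 4 and 6 and after quantile normalization (0.0693), 0.449 without them and with arrays centred (0.631, above the members), 0.488 within HFD, 0.492 without MSXH 7 and 8, and 0.519 to 0.567 with 1 array left out. Of the 22 members whose correlation with Hspa5 passed, 13 also passed with arrays centred, 14 within MSXH and 0 within HFD, and no other member did. The last 2 use 10 mice.

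Of 1114 values of single genes, 34 in 13 genes took the other sign. After quantile normalization these were Ern1 (-0.0811), Atf6 (0.0484), Creb3l3 (-0.447), Derl2 (-0.0947), Ddit3 (-0.421) and Trib3 (-0.252). With arrays centred they were Ern1 (-0.17), Creb3l3 (-0.658), Derl2 (-0.596), Ddit3 (-0.164) and Trib3 (-0.373). Without MSXH 4 and 6 and after quantile normalization they were Atf6 (0.578), Eif2ak3 (1.13), Hsp90b1 (0.543), Dnajc3 (0.173), Pdia4 (0.0193), Edem1 (0.405) and Ppp1r15a (0.685). When each gene took its probe set of smallest p, they were Ern1 (-0.66), Eif2ak3 (0.405) and Ddit3 (-0.372). Edem1 was at 0.293 on its most variable probe set and at 2.44e-05 for the mean of its probe sets. With 1 array left out, the range was -0.165 to 0.384 for Ern1, -0.148 to 0.377 for Derl3 and -0.0758 to 0.32 for Ddit3. Both scalings move nearly all genes in one direction while MSXH 4 and 6 are included. The cause of the other changes was not tested.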
